A study of Mus musculus with 7 samples.

Results

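Ier2, Dusp1, Zfp36, Gadd45b, Trib1, Nfkbid and Tnip3 are rapidly induced genes of activated cells, and most of them encode inhibitors of the signals that induce them. They were taken by gene symbol from the deposited expression table, and all 7 were found among its 752 genes. The libraries are total RNA of B cells taken from spleens on magnetic columns, from 3 Batf KO mice and 4 wild-type mice, all on the C57BL/6J background. Before harvest the cells spent 6 h in culture with the TLR4 ligand lipopolysaccharide (LPS, 20 µg/mL) and the cytokine interleukin-4 (IL-4, 20 ng/mL). Both genotypes received the same stimulation, and unstimulated cells and other times were not analysed here, so induction itself was not measured. The labels state neither the Batf allele nor the age or sex of the mice. The table holds only genes with a false discovery rate under 0.05 in the authors' own comparison of these libraries, so each of the 7 had passed that test before it was chosen.

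LPS acts on B cells through TLR4, which switches on the NF-kappaB and MAP kinase pathways. Within minutes these pathways induce immediate early genes, whose transcription needs no new protein. Many products of this first wave feed back on it: DUSP1 removes phosphate from MAP kinases, ZFP36 (tristetraprolin) speeds the decay of mRNAs with AU-rich elements, and the nuclear protein IkappaBNS, encoded by Nfkbid, acts on NF-kappaB at its target genes. BATF is a basic leucine zipper factor that pairs with JUN proteins, and it works with IRF4 or IRF8 at shared DNA sites.

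Batf itself, measured to check the genotype labels, had 63.4, 70.3 and 65.8 CPM (read counts scaled to the library size) in the Batf KO libraries, against 315, 307, 333 and 322 CPM in the wild-type libraries. Each KO library lay far below each wild-type library. From gene totals it cannot be read where in Batf the KO reads lie. The library sizes behind the CPM ran between 23675459 and 30844920 for Batf KO and between 24891094 and 44728937 for wild type. One KO library stood apart: Batf KO replicate 1 held all 72 reads of the Y-linked gene Usp9y. Sex was therefore possibly not balanced between the genotypes, and its part in the differences was not tested. Wild-type libraries were alike in pairs, with a chi-square per degree of freedom over the listed genes of 18.0 for replicates 1 and 2 and 20.2 for replicates 3 and 4, against 32.5 to 48.5 for the remaining pairs. Of 10 B cell markers, Ms4a1, Ighm and Blk had values here, and being listed, each had an FDR under 0.05 in the authors' deposited table. Ms4a1 ran from 832 to 905 CPM in Batf KO and from 533 to 613 CPM in wild type. Blk ran from 96.8 to 111 CPM in Batf KO and from 66.1 to 76.1 CPM in wild type, while Ighm was lower in Batf KO, at 1127 to 1280 CPM, against 1487 to 1893 CPM in wild type. Their sum was 2129 to 2223 CPM in Batf KO and 2174 to 2529 CPM in wild type, which does not show that the B cell content was alike.

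Of the 7 genes, 4 rose in Batf KO: Gadd45b by 1.54-fold, Trib1 by 1.77-fold, Ier2 by 1.43-fold and Nfkbid by 1.40-fold. Dusp1 and Zfp36 had higher means in Batf KO and Tnip3 a lower one, and these 3 did not pass the test. The test was edgeR's quasi-likelihood test, with p-values adjusted by the Benjamini-Hochberg method over all 19734 genes that the authors tested, genes outside the table counting as p = 1. With this rule 1.45% of the 19734 genes were called, 0.679% as higher and 0.77% as lower, but among the 667 listed genes that were fitted the share was 42.9% (20.1% as higher). The authors' deposited table called 3.81% of the 19734, 1.95% as higher and 1.86% as lower. In either direction, 4 of 7 is close to the 42.9% that the listed genes gave as a whole. All 4 were higher, for which the share of the fitted listed genes was 20.1%. With 7 chosen genes, this difference was not tested. The count fell to 1, Gadd45b, without Batf KO replicate 1 or without Batf KO replicate 2, and to 2 without wild-type replicate 1, 3 or 4. With TMM scaling over the listed genes 112 genes were called as higher and 198 as lower, against 134 and 152 as fitted, and 3 of the 7 genes passed. The groups did not overlap for any of the 7 genes, as for 96.1% of the fitted listed genes. The median size of the log2 fold change over the 7 genes was 0.63, that of Gadd45b. Of the 667 fitted genes, 344 had a smaller change than Gadd45b. With sign, the median was 0.51 over the 7 genes and 0.30 over the 667. The value of 0.30 is not a typical change, since 339 of the 667 were higher and 328 lower. All 7 genes passed the filter of a mean of 1 CPM over all libraries. For each of the 7, an exact permutation test on CPM (two-sided) gave p = 0.0286, the smallest p that 3 libraries against 4 allow. The genes had been selected on this same contrast, so this outcome was nearly fixed beforehand and adds no support.

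**Figure D1:**
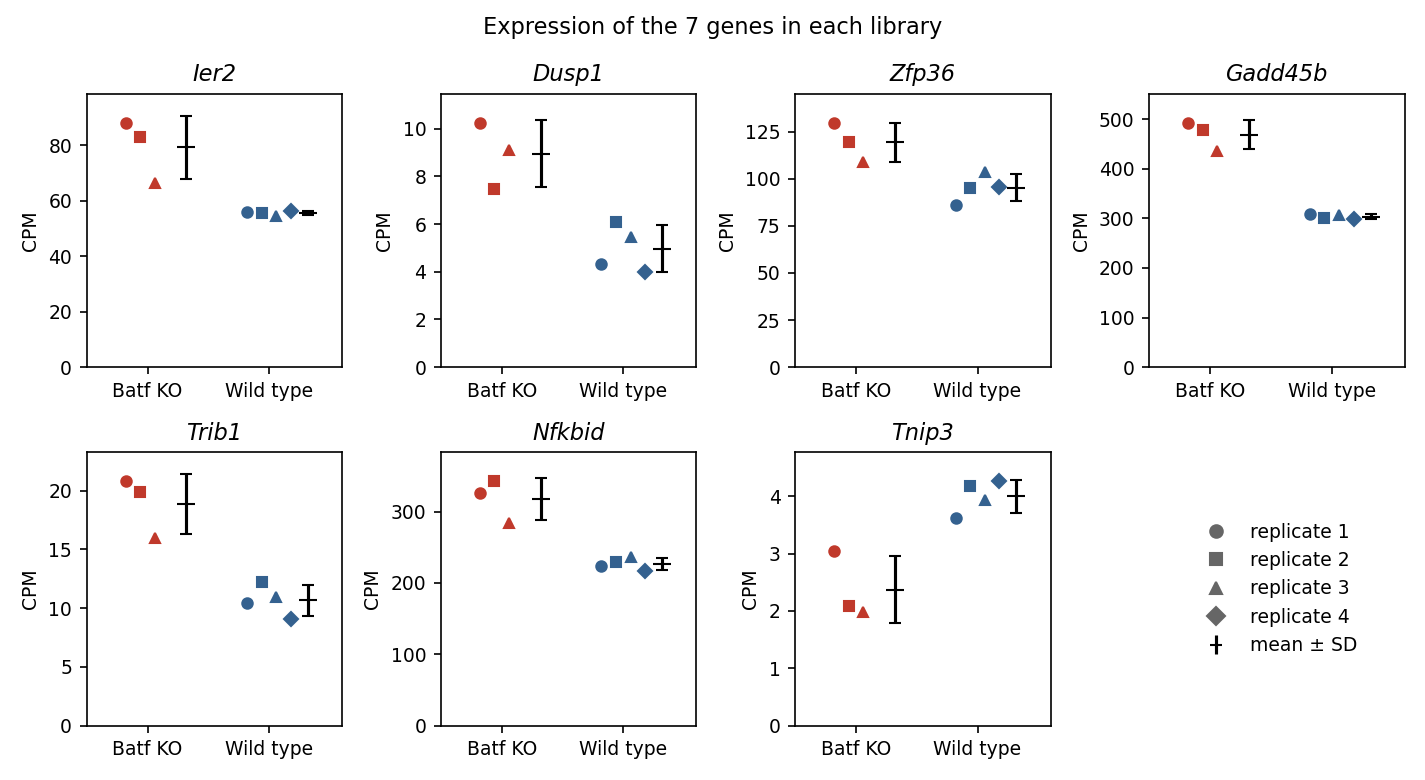
CPM of each gene (vertical axes, each from 0) in the 3 Batf KO libraries (red) and the 4 wild-type libraries (blue), with the replicate given by the symbol and the mean ± SD beside the points. The KO libraries lie above the wild-type libraries for 6 genes and below them for Tnip3, and the closest approach relative to the level is that of Zfp36 (lowest KO library 109 CPM, highest wild-type library 104 CPM).

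Ier2 is a short immediate early gene without introns that encodes a nuclear protein (chromosome 8, 84661331 to 84662852, minus strand, GRCm38, the assembly also called mm10). It had 88.2, 83.1 and 66.6 CPM in the Batf KO libraries, against 56.1, 55.5, 54.5 and 56.3 CPM in the wild-type libraries. The wild-type libraries were nearly identical, with a coefficient of variation of 1.46%, while the KO libraries spread over 14.2%. Ier2 averaged 79.3 ± 11.3 CPM in Batf KO (SD, n = 3) and 55.6 ± 0.81 CPM in wild type (SD, n = 4). The log2 fold change was 0.51 (SE 0.10; edgeR adjusted p = 0.0424). The call was lost without Batf KO replicate 1 (edgeR adjusted p = 0.193), without Batf KO replicate 2 (0.210) and without any of wild-type replicates 1 to 4 (0.109, 0.0835, 0.121 and 0.0977), and it held without Batf KO replicate 3 (0.0121).

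Dusp1 encodes a dual specificity phosphatase that inactivates the p38, JNK and ERK MAP kinases. It had 10.2, 7.46 and 9.12 CPM in the Batf KO libraries (316, 201 and 216 reads), against 4.31, 6.08, 5.48 and 3.98 CPM in the wild-type libraries (172, 183, 245 and 99 reads). The genotypes lay apart by 1.38 CPM, and libraries of both groups varied widely, by 15.7% in Batf KO and 19.8% in wild type. Its mean was 1.80-fold higher in Batf KO, the largest ratio of the 7 genes, with a log2 fold change of 0.85 (SE 0.19), but it did not pass (edgeR adjusted p = 0.0796). The pooled reads give a ratio of 1.80 with an exact 95% interval of 1.62 to 2.00, which covers counting error only. In DESeq2 Dusp1 was called (adjusted p = 0.00346). The annotated gene (chromosome 17, 26505590 to 26562128, minus strand) includes a long isoform and overlaps 4 other annotated genes, among them Ergic1 on the opposite strand. Neither labels nor headers say whether reads were counted by strand.

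Immediate early genes are commonly driven from short elements just before their start, so the 250 bases before each RefSeq start (GRCm38.p6) were searched on both strands. Of 11 patterns searched first, 4 are described here, and they were kept, with a stricter form of the kappaB motif, after the matches in these windows had been seen. They are AP-1 (TGANTCA), the cyclic AMP response element or CRE (TGACGTCA), the CArG box bound by SRF and the kappaB motif bound by NF-kappaB. No matches of different motifs overlapped. RefSeq windows were matched for Dusp1, Gadd45b, Nfkbid, Tnip3 and Zfp36, 7 windows in all because Nfkbid has 3 starts. A CRE stood in the windows of Dusp1 and Nfkbid and in 1.55% of all 32851 windows. The kappaB motif stood in those of Nfkbid and Tnip3 and in 3.90% of all windows, the CArG box in that of Zfp36 and in 1.47%, and TGANTCA in none of the 7 and in 6.75% of all windows. Of the patterns set aside, the composite motif of AP-1 and IRF factors, the interferon response element and the EGR motif were in none of the 7 windows (in 1.53%, 2.98% and 0.54% of all). The SP1 motif (GGGCGG) was in 5 of the 7 (32.7% of all) and the ETS motif (CCGGAA) in 1 (12.0%). The CRE half-site (TGACG) was in 2 (17.8%), and the looser kappaB forms were in 2 and 3 (10.4% and 25.4%). A match is a description of the letters and not a bound site. The 4 windows with a match are shown because they hold the matches just counted, with the motif matches in capitals and the sequence 5′ to 3′ on the gene's own strand.
Dusp1, chr17:26508473-26508722, minus strand: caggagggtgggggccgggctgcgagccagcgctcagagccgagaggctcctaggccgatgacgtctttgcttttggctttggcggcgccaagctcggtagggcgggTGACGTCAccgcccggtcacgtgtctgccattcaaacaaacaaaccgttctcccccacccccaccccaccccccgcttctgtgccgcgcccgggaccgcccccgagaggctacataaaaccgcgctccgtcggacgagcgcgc
Zfp36, chr7:28379229-28379478, minus strand: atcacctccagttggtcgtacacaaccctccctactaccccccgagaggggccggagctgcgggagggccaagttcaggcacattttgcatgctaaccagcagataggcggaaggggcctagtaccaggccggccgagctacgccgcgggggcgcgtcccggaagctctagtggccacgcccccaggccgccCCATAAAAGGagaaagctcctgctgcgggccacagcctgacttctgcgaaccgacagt
Nfkbid, chr7:30422156-30422405, plus strand: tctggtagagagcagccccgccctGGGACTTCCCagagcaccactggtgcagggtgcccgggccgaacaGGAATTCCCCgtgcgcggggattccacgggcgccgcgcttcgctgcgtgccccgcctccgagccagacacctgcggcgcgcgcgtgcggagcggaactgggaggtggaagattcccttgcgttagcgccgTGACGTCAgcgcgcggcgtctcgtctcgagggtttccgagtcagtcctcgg
Tnip3, chr6:65590148-65590397, plus strand: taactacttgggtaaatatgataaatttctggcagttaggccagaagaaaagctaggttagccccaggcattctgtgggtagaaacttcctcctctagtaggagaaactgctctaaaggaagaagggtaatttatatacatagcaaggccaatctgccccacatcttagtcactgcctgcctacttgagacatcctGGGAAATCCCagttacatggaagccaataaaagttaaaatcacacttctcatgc

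Zfp36 encodes the RNA-binding protein that recruits the deadenylation machinery to AU-rich mRNAs (chromosome 7, 28376784 to 28380253, minus strand). It had 130, 120 and 109 CPM in the Batf KO libraries, against 86.0, 95.1, 104 and 95.8 CPM in the wild-type libraries. The lowest KO library and the highest wild-type library were 4.90 CPM apart. Zfp36 averaged 119 ± 10.5 CPM in Batf KO (SD, n = 3) and 95.2 ± 7.25 CPM in wild type (SD, n = 4), a ratio of 1.25 that did not pass (log2 fold change 0.33, SE 0.09, edgeR adjusted p = 0.177). In DESeq2 it was called (adjusted p = 0.0355). It was the smallest difference of the 7 genes, and only 30 of the 667 fitted genes had a smaller one. An annotated antisense gene, Gm44710, overlaps Zfp36, and its reads cannot be told apart without strand.

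A sequence that ZFP36 binds is the heptamer UAUUUAU, written TATTTAT here, in the 3′ untranslated region (UTR). In the GENCODE M21 transcript with the longest coding sequence, 2 of the 7 genes carry it, Dusp1 and Zfp36 itself, with 3 copies each in UTRs of 690 and 774 bases. Of all 20072 genes with a UTR of at least 50 bases, 26.1% carry it, and 18.6% and 19.8% do among genes whose UTRs are of like length to those of Dusp1 and Zfp36. Ier2, Gadd45b, Trib1, Nfkbid and Tnip3 carry none in the transcript used. The Dusp1 stretch around its first heptamer and the Zfp36 stretch with 2 heptamers are shown because they are the 2 genes of the set with sites, with the heptamers in capitals.
Dusp1, bases 93 to 122 of the UTR: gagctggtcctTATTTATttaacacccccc
Zfp36, bases 567 to 596 of the UTR: gggcccttTATTTATgacgacttTATTTAT

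Gadd45b encodes a small stress-induced protein that binds upstream kinases of the JNK and p38 pathways (chromosome 10, 80930073 to 80932204, plus strand). It had 492, 478 and 436 CPM in the Batf KO libraries, against 308, 301, 306 and 299 CPM in the wild-type libraries. The gap of 127 CPM between the groups was larger than the range within either. Gadd45b averaged 469 ± 29.4 CPM in Batf KO (SD, n = 3) and 304 ± 4.44 CPM in wild type (SD, n = 4). It rose by 0.63 on the log2 scale (SE 0.06; edgeR adjusted p = 0.00133), and it kept its call whichever library was left out (0.00420 to 0.0144).

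Trib1 encodes a pseudokinase that brings C/EBP factors to the ubiquitin ligase COP1 (chromosome 15, 59648350 to 59657099, plus strand). It had 20.8, 19.9 and 16.0 CPM in the Batf KO libraries, against 10.4, 12.3, 10.9 and 9.08 CPM in the wild-type libraries. Each KO library exceeded each wild-type library by 3.71 CPM or more. Trib1 averaged 18.9 ± 2.56 CPM in Batf KO (SD, n = 3) and 10.7 ± 1.31 CPM in wild type (SD, n = 4), and its log2 fold change was 0.82 (SE 0.14; edgeR adjusted p = 0.0250). The call was lost without Batf KO replicate 1 (0.132) or 2 (0.137) and without wild-type replicate 1 (0.0808), 3 (0.0736) or 4 (0.0558).

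Nfkbid encodes IkappaBNS, an atypical IkappaB protein that B cells need for normal responses to LPS (chromosome 7, 30421732 to 30428746, plus strand). It had 326, 342 and 284 CPM in the Batf KO libraries, against 223, 230, 236 and 217 CPM in the wild-type libraries. The groups lay 48.5 CPM apart, and the lowest KO value was that of replicate 3. Nfkbid averaged 318 ± 29.9 CPM in Batf KO (SD, n = 3) and 227 ± 8.17 CPM in wild type (SD, n = 4), with a log2 fold change of 0.49 (SE 0.07; edgeR adjusted p = 0.0136). Without Batf KO replicate 1 the adjusted p was 0.0837 and without Batf KO replicate 2 it was 0.0842, while the call held without any other single library. Its start with a CRE also holds 2 of the 3 kappaB matches found in the windows above.

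Tnip3 encodes ABIN-3, of a family of proteins that bind A20, the ubiquitin-editing inhibitor of NF-kappaB (chromosome 6, 65525313 to 65634040, plus strand). It had 3.05, 2.08 and 1.99 CPM in the Batf KO libraries (94, 56 and 47 reads), against 3.61, 4.19, 3.93 and 4.26 CPM in the wild-type libraries (144, 126, 176 and 106 reads). It was the single gene of the 7 with a lower mean in Batf KO, and the groups were 0.56 CPM apart. Tnip3 averaged 2.37 ± 0.59 CPM in Batf KO (SD, n = 3) and 4.00 ± 0.29 CPM in wild type (SD, n = 4). The log2 fold change of -0.74 (SE 0.19) did not pass (edgeR adjusted p = 0.156), and DESeq2 did not call it either (0.0551). The pooled reads, 197 in Batf KO and 552 in wild type, give a ratio of 0.61 per library size with an exact 95% counting interval of 0.52 to 0.72, which leaves out the spread between mice.

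**Figure D2:**
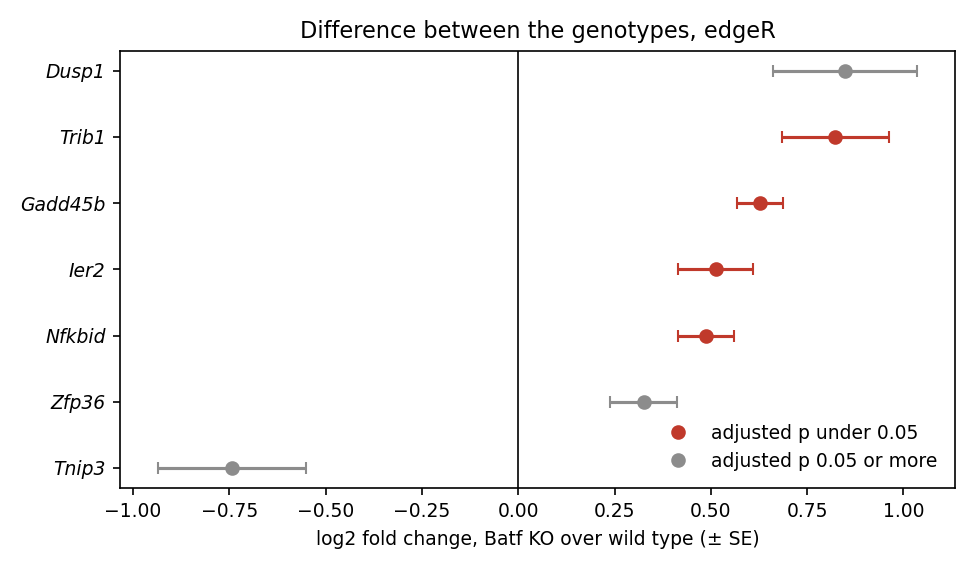
Log2 fold change of each gene, Batf KO over wild type (horizontal axis), as points with SE bars from edgeR's quasi-likelihood test. Red points passed the adjustment over 19734 genes and grey points did not: Dusp1 (0.85) and Tnip3 (-0.74) have large changes but also the widest bars (SE 0.19 each).

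Per kilobase of the coding transcript, Gadd45b was the most abundant of the 7 in both genotypes, at 365 ± 22.9 CPM per kilobase in Batf KO (SD, n = 3) and 236 ± 3.46 in wild type (SD, n = 4). Nfkbid followed at 158 ± 14.8 in Batf KO and 112 ± 4.06 in wild type. Ier2, at 52.1 ± 7.40 in Batf KO and 36.5 ± 0.54 in wild type, and Zfp36, at 42.8 ± 3.77 in Batf KO and 34.1 ± 2.60 in wild type, came next. In wild type their means differed by less than the SD of Zfp36, but in Batf KO by more than the SD of either gene. Dusp1 (4.49 ± 0.70 in Batf KO, 2.49 ± 0.49 in wild type), Trib1 (4.36 ± 0.59 in Batf KO, 2.46 ± 0.30 in wild type) and Tnip3 (1.54 ± 0.38 in Batf KO, 2.59 ± 0.19 in wild type) formed a low group. These 3 did not separate beyond their spread in wild type, whereas in Batf KO Tnip3 lay below the other two. Fewer expressing cells and less RNA per cell cannot be told apart in such bulk samples.

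**Figure D3:**
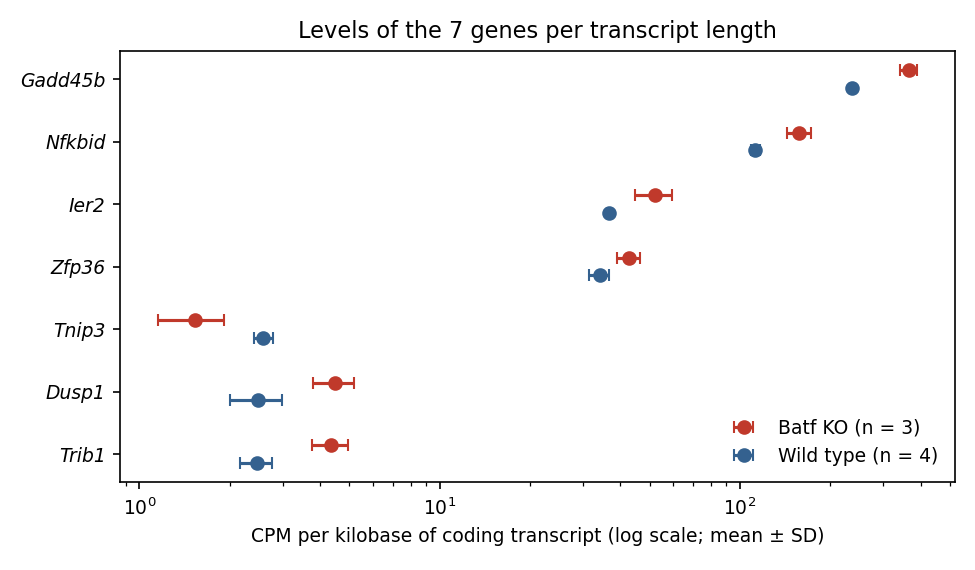
Mean CPM per kilobase of coding transcript (log axis) with SD bars for Batf KO (red, n = 3) and wild type (blue, n = 4). Gadd45b and Nfkbid lie highest (365 and 158 in Batf KO), and Dusp1, Trib1 and Tnip3 lie between 2.46 and 2.59 in wild type.

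Among the 6 genes with a higher mean in Batf KO, replicate 1 was the highest KO library for 5 and replicate 3 the lowest for 5. Over the 339 fitted genes that were higher in Batf KO, replicate 1 was the highest KO library for 37.5% and replicate 3 the lowest for 52.8%. The KO libraries varied more than the wild-type libraries, by coefficient of variation, for 6 of the 7 genes, the exception being Dusp1. How often this held among all fitted genes was not computed. Over the listed genes, the chi-square per degree of freedom was 16.2 to 23.0 for KO pairs and 18.0 to 48.5 for wild-type pairs. That measure also depends on read depth. The coefficient of variation of the 7 genes ran from 6.28% (Gadd45b) to 24.8% (Tnip3) in Batf KO. In wild type it ran from 1.46% (Gadd45b and Ier2) to 19.8% (Dusp1). A few markers of other spleen cells had values here, and being listed, each had an FDR under 0.05 in the authors' deposited table. Markers without a value either did not pass that FDR or were not tested. Of 10 T cell markers, only Cd8b1 had a value. It ran from 5.24 to 7.42 CPM in Batf KO and from 1.48 to 2.59 CPM in wild type. Of 6 dendritic cell markers, only Zbtb46 had a value, 73.6 to 89.6 CPM in Batf KO and 47.4 to 65.6 CPM in wild type. Only Pf4 of 8 erythroid and platelet markers had one, 0.76 to 1.04 CPM in Batf KO and 0.28 to 0.63 CPM in wild type. Pf4 was below the CPM filter of the fit. Of 5 plasma cell markers 2 had values, in opposite directions. Irf4, which activated B cells express too, ran from 1371 to 1566 CPM in Batf KO and from 597 to 727 CPM in wild type, while Prdm1 averaged 6.11 ± 0.81 CPM in Batf KO (SD, n = 3) and 10.2 ± 2.57 CPM in wild type (SD, n = 4). Irf4 makes up nearly all of their sum, 1376 to 1572 CPM in Batf KO and 606 to 740 CPM in wild type. Markers of NK cells, macrophages and monocytes, neutrophils and stroma had no values here. The part of other cells in the differences of the 7 genes was not tested.

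The other genes of these pathways were taken from 16 lists, chosen with earlier results of these data known. Of their 200 annotated genes beside the 7, 34 had values here (17.0%). Among all genes tested by the authors the share was 3.81%, but how many of the 200 were tested is not known. With the lists so chosen, the difference between these shares is no evidence of enrichment. Of the 34 genes, 7 rose and 7 fell, 42.4% of the 33 that were fitted, which is close to the 42.9% among all fitted listed genes. Leaving out 1 library at a time, 7 of these 14 calls were lost without Batf KO replicate 2 and 6 without replicate 1, among them Jun, Nr4a3, Id1 and Dusp10, and 5 without replicate 3. Without 1 wild-type library 2 or 3 were lost, of Id1, Ticam1 and Tab2. Immediate early transcription factors had 8 of 23 members listed, with a median log2 fold change of 0.61. The AP-1 subunit gene Jun rose 1.81-fold and the nuclear receptor genes Nr4a1 and Nr4a3 1.87-fold and 1.73-fold, whereas Egr2, a zinc finger factor gene, fell to 11.2 ± 1.86 CPM in Batf KO, against 34.5 ± 7.27 CPM in wild type (SD, n = 3 and 4). Jund, Atf3, Srf and Klf6 did not pass, with edgeR adjusted p of 0.199, 0.130, 0.0949 and 0.202. Of 19 immediate early genes that encode other proteins, Id1, an inhibitor of helix-loop-helix factors, rose 1.62-fold beside Ier2 (edgeR adjusted p = 0.0435, kept in 1 of the 7 fits without 1 library), and Cd69 (edgeR adjusted p = 0.0556), Ier3 (0.140) and Id2 (0.0759) did not pass.

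In the lists that hold Dusp1 and Zfp36, the other genes that passed were lower in Batf KO. Apart from Zfp36, the listed genes of its list are of the mRNA decay part, not of the ZFP36 family itself. Of 11 MAP kinase phosphatases, Dusp10, which acts on p38 and JNK, fell to 15.4 ± 0.88 CPM in Batf KO, against 26.7 ± 3.33 CPM in wild type (SD, n = 3 and 4; edgeR adjusted p = 0.0145), with Dusp1 the other one listed. Of 16 genes of the ZFP36 family and mRNA decay, Auh, which encodes an enoyl-CoA hydratase that binds AU-rich RNA, fell 2.17-fold, and Zc3h12d, of the Regnase family of RNA-degrading proteins, fell 1.80-fold. Zc3h12c of the same family did not pass (edgeR adjusted p = 0.140). Gadd45b was the single listed gene of 4 in its list, Trib1 of 7, and Nfkbid of 7 in the IkappaB list. In the list of TNIP and A20 proteins, Tnip3 and the genes Tax1bp1 (ratio 0.83) and Cyld (ratio 0.83), which encode an A20 adaptor and a deubiquitinase, had lower means in Batf KO, and none of the 3 passed (edgeR adjusted p = 0.156, 0.130 and 0.0712).

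Among regulators of TLR4 signalling, Socs3, a feedback inhibitor of cytokine receptors, rose 1.75-fold, while Pdlim2 (edgeR adjusted p = 0.0557) and Sigirr (0.0688) did not pass, and 13 further genes of the 16 in the list had no value here. Of 17 TLR4 pathway genes, 2 were listed. Ticam1, which encodes the TLR4 adaptor TRIF, had a mean 1.29-fold higher in Batf KO and passed narrowly (edgeR adjusted p = 0.0446), but it lost the call whichever library was left out (0.0859 to 0.204). Ticam1 also lost it with a minimum of 5 CPM, with TMM factors and with DESeq2 size factors. Tab2, a partner of the kinase TAK1, fell 1.35-fold (edgeR adjusted p = 0.0203). Tab2 kept its call in 2 of the 7 fits without 1 library (edgeR adjusted p 0.0203 to 0.105). Map3k14, the kinase of the alternative NF-kappaB pathway, fell 1.51-fold and was the single listed gene of 11 in the list of NF-kappaB subunits and kinases. Of 18 genes in the MAP kinase list, Map3k14 and Map3k1 were listed, and Map3k1 did not pass (edgeR adjusted p = 0.0572). Rasal1, a Ras inhibitor, was the single listed gene of 10 other MAP kinase feedback genes and did not pass (0.198). None of 18 heat shock and handling stress genes had a value here.

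Of 17 mostly cytokine mRNAs of the kind that ZFP36 destabilises, 6 were listed and 1 was called. The mean was higher in Batf KO for 5 of the 6 and lower for Il6, while 339 of the 667 fitted genes were higher. The median log2 fold change of the 6 was 0.80, but each had been selected on this contrast. A part of ZFP36 in these differences was not tested. Il10, an anti-inflammatory cytokine gene, rose to 30.6 ± 9.08 CPM in Batf KO, against 8.64 ± 0.50 CPM in wild type (SD, n = 3 and 4). Ccl4, Il6, Ier3, Il1b and Ccl3 did not pass, with log2 fold changes of 0.91, -0.69, 1.03, 0.69 and 0.67 and edgeR adjusted p of 0.0512, 0.0527, 0.140, 0.146 and 0.153. In a list of 10 genes drawn up around IkappaBNS, Tnfrsf13b, which encodes the receptor TACI, fell to 160 ± 12.3 CPM in Batf KO, against 370 ± 42.7 CPM in wild type (SD, n = 3 and 4). Prdm1, the plasma cell repressor gene, did not pass (log2 fold change -0.73, edgeR adjusted p = 0.276), and Il10 and Il6 are also in this list.

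**Figure D4:**
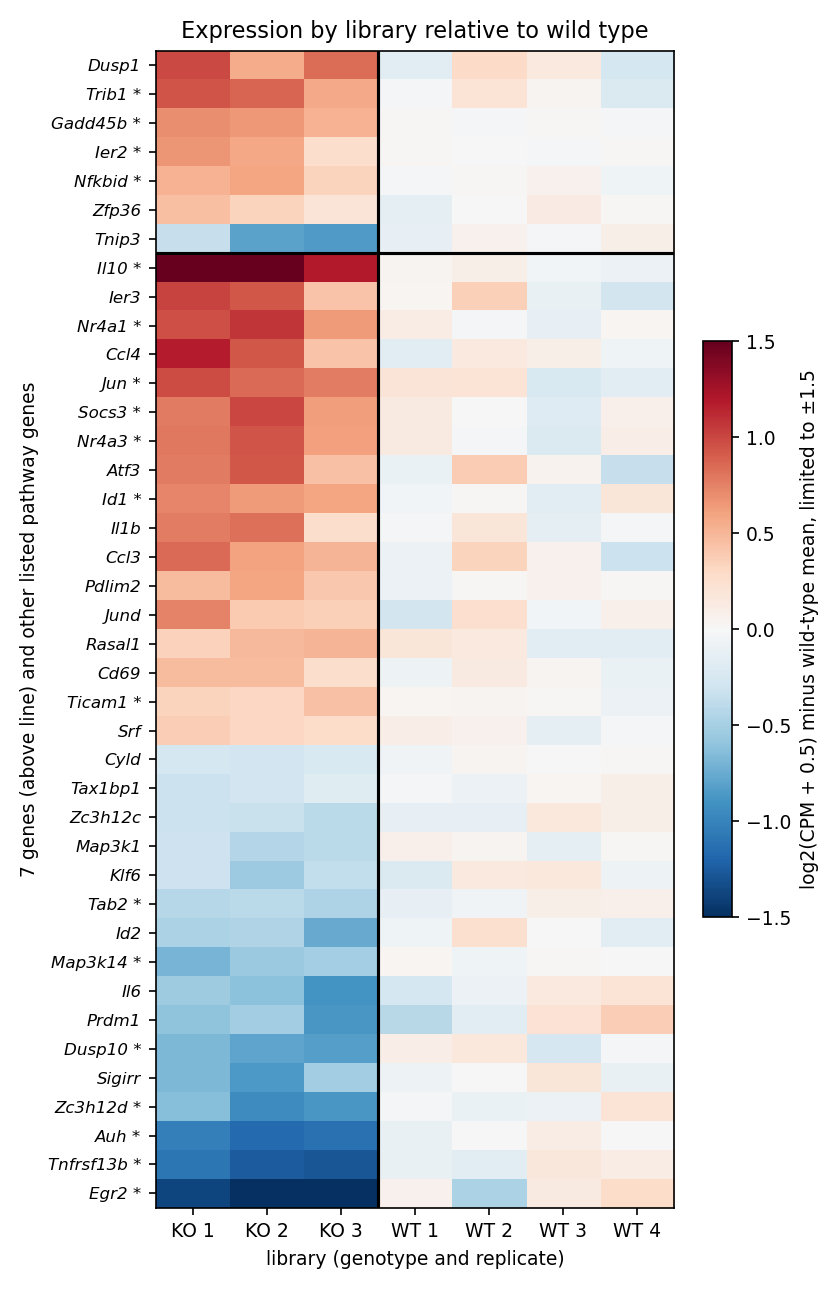
Log2(CPM + 0.5) of each library minus the wild-type mean (colour, limited to ±1.5) for the 7 genes (above the line) and the 33 other fitted genes of the lists (below), with Batf KO libraries left of the vertical line and an asterisk on genes that passed the edgeR test. Of the 6 rows with higher KO means among the 7, replicate 3 is the lowest KO library in 5, and Il10 (3.54-fold) and Egr2 (3.09-fold lower) have the strongest colours below the line.

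Leaving the 7 genes themselves out of the ranking, the listed genes whose profile over the 7 libraries was most like that of each gene were found by the root mean square difference of log2(CPM + 0.5), each gene centred on its own mean. For Gadd45b they were Tagln2, Nfatc1 and Ccr7, with differences of 0.04, 0.05 and 0.05 on the log2 scale, against a median of 0.48 to all fitted genes. Pdlim2 and Plxnd1 were among the 3 nearest to Nfkbid (0.05 and 0.06), and for Ier2 they were Zfp296, Dcbld1 and Tagln2 (0.07, 0.08 and 0.08). With the 7 genes counted in, Nfkbid came second for Ier2, after Zfp296, at 0.07. Trib1 was nearest to Grn, Aunip and Ier3 (0.08, 0.10 and 0.11), Dusp1 to Ctla2a, Nebl and Ccl3 (0.12, 0.12 and 0.13), and Zfp36 to Uqcrfs1, Pim3 and Irf2bp1 (0.06 each). For Tnip3 they were Klhl15, a gene given only as ENSMUSG00000071286, and Dnajb9, at 0.11 each. Within 100 kb of the 7 genes, Ndnf beside Tnip3 was the single other gene with a value here.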

How the data were processed

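All values come from a table for the whole series. Its columns per library are read counts and the authors' CPM, per the file headers. Per the file headers it also gives the authors' contrast of the genotypes: p-value and FDR, log2 values for fold and mean abundance, and a likelihood ratio, which is a score without fixed bounds. The mm10 build and the tools edgeR 3.03, HTSeq 0.5.3p7 and TopHat2 2.0.6 are listed in the submitters' processing notes, with no roles. Annotation, strand setting and handling of multiply mapped reads: not given in the sources used here. The highest FDR deposited by the authors is 0.0499, and the ratio of FDR to p-value gives 19734 genes tested, so the 752 genes were selected on the contrast described here.

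Library sizes were recovered as count divided by CPM. Counts of the 667 genes with a mean of at least 1 CPM over all libraries were fitted with edgeR 4.0.16 in R 4.3.3 (quasi-likelihood test, 2 groups, no covariates). The spread between libraries was thus estimated only from genes selected on this contrast. Adjusting over more genes does not correct for that, and its effect on the p-values was not tested. The edgeR p-values were adjusted over 19734 genes, genes outside the table counting as 1, and the threshold was 0.05. The SE is the log2 fold change divided by the square root of F. The fit was tested on counts simulated for these genes, which imitated neither the selection on FDR nor the adjustment over 19734 genes. Each library was treated as 1 mouse, as the design text counts spleens. That text also mentions 2 replicates for each sample, which it does not explain. Exact permutation tests used scipy 1.17.1. Counting intervals cover counting error only.

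Positions and transcripts came from GENCODE M21 (GRCm38), whose gene names matched 742 of 752 identifiers, and promoters from RefSeq (GRCm38.p6). Like UTR length means 80 to 125% of the gene's own. The 7 genes, the lists and the tests were chosen with earlier results of these data known. Beside the 7 genes and Batf, the text names each listed gene of the lists and, for each of the 7, the 3 most similar listed genes, except for 2 genes that are not reported here. Usp9y, Ms4a1, Ighm, Blk, Cd8b1, Zbtb46, Pf4, Ndnf, Ergic1 and Gm44710 are named as checks.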

Additional observations from a re-analysis of the deposited data

How the results depend on the processing

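No log2 fold change of the 7 genes, Batf or the 33 other fitted genes of the lists changed direction under the alternatives run. Batf and Gadd45b passed under each of 17 alternatives. Leaving out 1 library gave log2 fold changes of -2.31 to -2.23 for Batf, 0.43 to 0.62 for Ier2, 0.75 to 0.93 for Trib1 and 0.43 to 0.56 for Nfkbid. Counts over all genes were then 50 to 124 higher and 78 to 139 lower, against 134 and 152 with all libraries, and 1 to 4 of the 7 genes were called. Without wild-type replicates 1 and 2, 2 of the 7 genes were called, with Ier2 (0.52) and Nfkbid (0.49) no longer passing. Without wild-type replicates 3 and 4, 1 was called, with Ier2 (0.51), Trib1 (0.74) and Nfkbid (0.49) no longer passing, and the counts were 70 higher and 85 lower. These settings use fewer samples. Ier2 also missed the threshold with a mean CPM of at least 5 (0.51, edgeR adjusted p = 0.0514) and with TMM factors on the listed genes (0.47, 0.0521), where the cause was not tested. DESeq2 called 6 of the 7 genes, adding Dusp1 (0.85) and Zfp36 (0.33), and gave 265 higher and 304 lower genes. Adjusting over the fitted listed genes alone called all 7, with Dusp1 (0.85), Zfp36 (0.33) and Tnip3 (-0.74), and 339 higher and 328 lower genes, which were selected on this contrast. The limma tests on log2(CPM + 0.5) and log2(CPM + 1), the DESeq2 size factors and the fit without a filter called the same 4 genes. Tnip3 fell below the minimum of 5 CPM and had no value there. No paired analysis was run, because the labels used here name nothing that joins a Batf KO mouse to a wild-type mouse. Tnip3 and Dusp1 had the fewest reads of the 7 genes, 47 to 176 and 99 to 316 in a library.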
